A study of Mus musculus with 2 samples.

Results

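The 8 genes described here belong to the complement system and were followed through single cells of the mouse cortex: the C1q chains C1qa, C1qb and C1qc, the components C3 and C4b, the anaphylatoxin receptors C3ar1 and C5ar1, and the inhibitor Serping1. They were taken by symbol from the gene list of the count tables, where each of the 8 matched 1 row of 32285 genes. One library came from Fam69c knockout (KO) mice and the other from wild-type (WT) mice, all male and 4 months old. The labels name 7 mice pooled by genotype, so each genotype is 1 library without a replicate, and neither the allele, the strain nor the number of mice in each pool is given. Cortex was dissociated enzymatically, stained with the viability dye 7-AAD, sorted and profiled with 10x 3′ chemistry version 3.1, which counts the 3′ ends of transcripts as unique molecular identifiers (UMIs).

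Complement is a cascade of plasma and tissue proteins that tags surfaces and recruits phagocytes. C1q, built from the 3 chains, binds a target and starts the classical pathway; C4 and then C3 are cleaved, and fragments of C3 coat the target. C3ar1 and C5ar1 are G-protein-coupled receptors for the small fragments C3a and C5a, and Serping1 is the C1 inhibitor. In brain, microglia are known as the main source of C1q, and tagging of synapses by C1q and C3 takes part in developmental pruning.

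The KO library held 9182 barcodes and the WT library 7150, of which 7032 KO and 4940 WT cells were kept, with a median of 8449 and 8580 UMIs per cell; 10 barcodes occurred among the kept cells of both libraries. Cells were assigned to classes by marker genes that include none of the 8, and a class is called like its cell type. Dipk1c, the current symbol of Fam69c, was at 33.3 CPM in KO and 58.9 CPM in WT astrocyte-like cells, so its transcript was still counted in the library labelled KO; where in the gene the deletion lies is not known here, so this level is no check of the label. CPM here is relative to all UMIs of the class in the library. With 1 library a genotype no difference can be tested: intervals are exact 95% intervals for counting error only, and genotype cannot be told apart from any other difference between the libraries.

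The 8 genes were divided among few classes. Microglia-like cells held 87.5% of all C1q-chain UMIs of the KO library and 87.8% of those of the WT library, although they made up 4.44% of KO and 5.14% of WT cells. They also held 81.8% of C3ar1 UMIs in KO and 82.2% in WT. C5ar1 was shared between microglia-like cells, with 44.6% of its UMIs in KO and 42.7% in WT, and neutrophil-like cells, with 33.6% in KO and 23.3% in WT. C3 lay mainly in monocyte-like cells, 60.9% in KO and 33.3% in WT, and neutrophil-like cells, 19.9% in KO and 24.3% in WT. Monocyte-like cells made up 0.88% of KO and 0.36% of WT cells. Cells that joined no class held 13.7% of C3 UMIs in KO and 19.3% in WT. Of C5ar1 UMIs they held 13.2% in KO and 21.9% in WT. C4b had 63.7% of its UMIs in KO astrocyte-like cells and 25.8% in KO oligodendrocyte-like cells, against 43.0% and 44.2% in WT. Astrocyte-like cells made up 60.0% of KO and 52.2% of WT cells, and oligodendrocyte-like cells 11.3% and 14.3%. By level, C4b in astrocyte-like cells (12.0 CPM in KO, 10.3 CPM in WT) was close to that in microglia-like cells (9.99 and 8.11 CPM). Ependymal-like cells had 24.1 CPM in KO and 25.1 CPM in WT, on 8 UMIs in each library. Serping1 was held mainly by fibroblast-like cells, 60.3% in KO and 65.6% in WT. Of the 56 pairs formed by the 8 genes and the 7 classes that held 50 cells or more in both libraries, 5 reached 50 CPM in both libraries, and all 5 were in microglia-like cells.

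**Figure D1:**
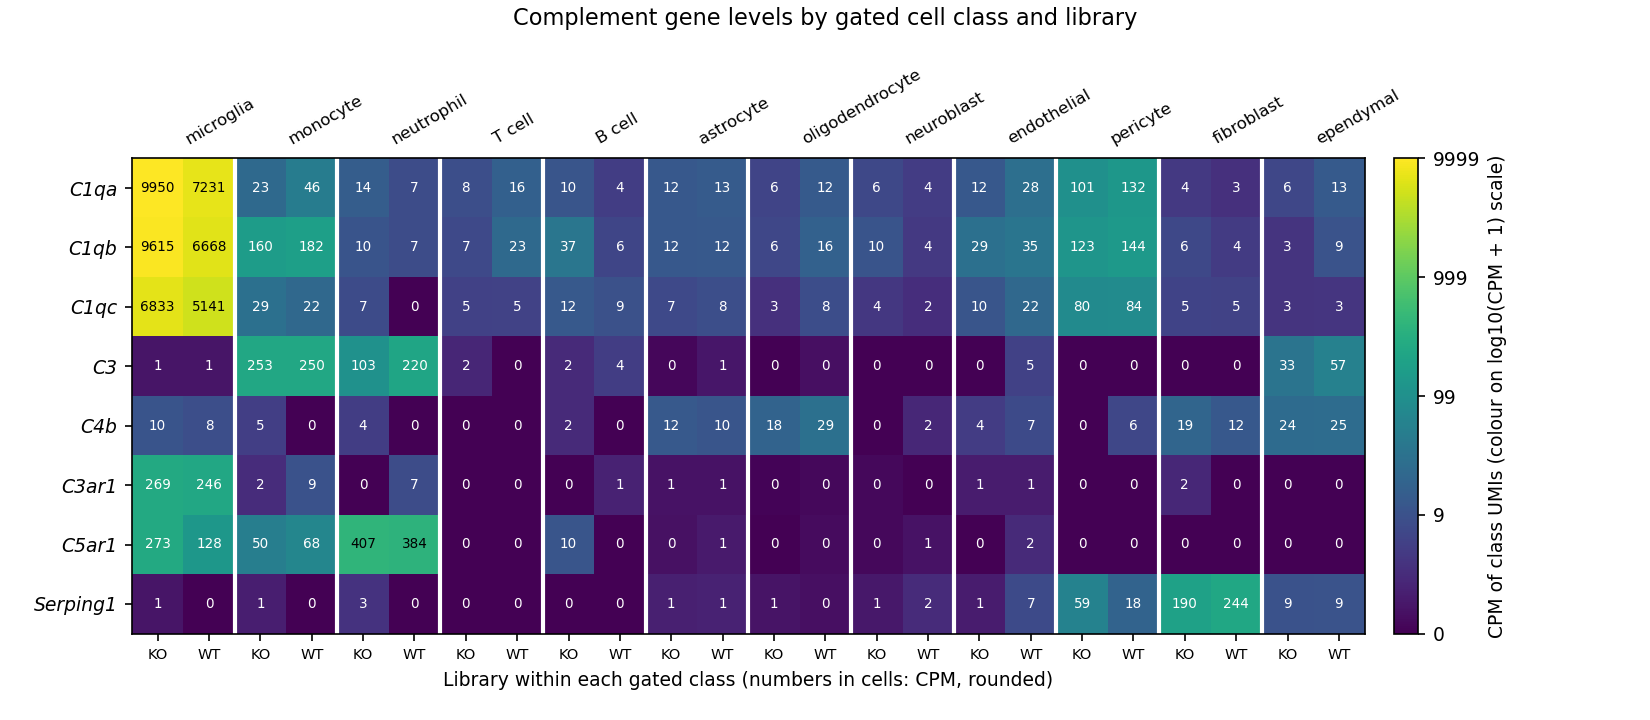
Heat map of the level of each of the 8 genes (rows) in 12 gated classes (columns, KO left of WT in each), in CPM of the UMIs of the class; colour follows log10(CPM + 1) and the rounded CPM is printed in each box. The C1q rows stand out in microglia-like cells, C3 in monocyte-like and neutrophil-like cells, C5ar1 in neutrophil-like and microglia-like cells, and Serping1 in fibroblast-like cells.

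The C1q genes are neighbours. On GRCm38, C1qb (chr4:136880129-136886187), C1qc (chr4:136889804-136893065) and C1qa (chr4:136895917-136898803) lie on the minus strand within 18675 bases of chromosome 4, each with 3 exons and a longest annotated transcript of 1088, 1203 and 1040 bases. The receptors lie apart from them, C3ar1 on chromosome 6 (chr6:122847138-122856161) and C5ar1 on chromosome 7 (chr7:16246743-16259540), both also on the minus strand. The RefSeq promoter windows matched 5 of the 8 genes and run from 250 bases before to 50 after the gene start given by RefSeq. They are shown for C1qb, C1qc, C3ar1 and C5ar1, which share the microglia-like class. The spans above are from GENCODE M21, and their starts differ from those of RefSeq. Most of the C5ar1 window, up to 16259588, lies inside the printed C5ar1 span, which ends at 16259540. Most of the C1qc window, up to 136893164, likewise lies inside its span, which ends at 136893065. Capitals mark a match to a motif on either strand.
C1qb promoter, GRCm38.p6 chr4:136886151-136886450, minus strand: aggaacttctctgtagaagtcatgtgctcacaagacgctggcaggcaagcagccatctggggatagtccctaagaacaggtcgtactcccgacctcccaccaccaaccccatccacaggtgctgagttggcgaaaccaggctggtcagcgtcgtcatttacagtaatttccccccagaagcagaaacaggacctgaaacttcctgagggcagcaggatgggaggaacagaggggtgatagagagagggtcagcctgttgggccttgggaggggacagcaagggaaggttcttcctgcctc
C1qc promoter, GRCm38.p6 chr4:136892865-136893164, minus strand: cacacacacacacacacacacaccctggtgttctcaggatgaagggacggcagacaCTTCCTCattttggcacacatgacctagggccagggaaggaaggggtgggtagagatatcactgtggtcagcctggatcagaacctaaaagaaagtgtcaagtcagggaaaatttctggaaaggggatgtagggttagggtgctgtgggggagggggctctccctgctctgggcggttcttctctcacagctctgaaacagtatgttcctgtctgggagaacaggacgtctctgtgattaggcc
C3ar1 promoter, GRCm38.p6 chr6:122856108-122856407, minus strand: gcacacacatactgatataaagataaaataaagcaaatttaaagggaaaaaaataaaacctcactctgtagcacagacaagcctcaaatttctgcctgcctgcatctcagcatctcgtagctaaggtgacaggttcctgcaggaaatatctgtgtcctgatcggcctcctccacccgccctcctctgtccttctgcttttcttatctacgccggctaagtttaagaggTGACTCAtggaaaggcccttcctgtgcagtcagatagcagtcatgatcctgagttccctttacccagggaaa
C5ar1 promoter, GRCm38.p6 chr7:16259289-16259588, minus strand: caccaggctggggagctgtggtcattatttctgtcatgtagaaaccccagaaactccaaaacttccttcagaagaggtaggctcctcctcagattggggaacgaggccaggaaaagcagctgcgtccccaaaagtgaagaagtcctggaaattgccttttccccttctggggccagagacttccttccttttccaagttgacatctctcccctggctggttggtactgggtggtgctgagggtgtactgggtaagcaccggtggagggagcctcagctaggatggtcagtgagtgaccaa

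For 4 motifs both strands of these windows were searched. GAGGAAG, the core of sites of the myeloid factor PU.1, matched once in the C1qc window, read on the opposite strand from position 57, and in 13.5% of 27025 promoter windows. TGANTCA, the AP-1 site, matched once in the C3ar1 window at position 229, and in 7.93% of all windows. Neither the ETS-IRF composite motif, found in 2.79% of windows, nor TTGCGCAA, a C/EBP palindrome found in 0.185%, matched any of the 4 windows or that of C3. None of the 4 motifs was found in more than 1 of these windows.

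In microglia-like cells the C1q chains were among the most abundant transcripts and were higher in the KO library, and C5ar1 was 2.13-fold higher, whereas C3ar1 differed little. The class comprised 312 KO cells with a median of 5038.5 UMIs and 254 WT cells with a median of 6403.5 UMIs, and all 13 of its marker genes exceeded 50 CPM. C1qa, which encodes the A chain, was at 9950.1 CPM in KO and 7231 CPM in WT (13947 and 10693 UMIs). C1qb, the B chain, was at 9615 CPM in KO and 6668 CPM in WT. C1qc, the C chain, was at 6833 CPM in KO and 5141 CPM in WT. Thus each of the 3 chains was higher in KO, and none of the ratios reached 1.5-fold.

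Summed over the chains, C1q amounted to 26398 CPM in KO and 19040.0 CPM in WT, a log2 ratio of 0.47 (0.45 to 0.49). The log2 ratio was 0.46 for C1qa, 0.53 for C1qb and 0.41 for C1qc. Among the 4848 genes with at least 100 UMIs in the class, the summed ratio lay at the 92.1 percentile. Genes of like transcript length were higher in KO at the median: for the 241 genes with longest transcripts of 955 to 1316 bases it was 0.29 on the log2 scale in this class, against -0.01 for all 4848 genes. Relative to that median the chains were higher by 0.17 (C1qa), 0.24 (C1qb) and 0.12 (C1qc) on the log2 scale. Over all kept cells, C1q amounted to 681 CPM in KO and 675 CPM in WT, with microglia-like cells a smaller share of the KO cells.

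The 2 receptors had unlike ratios. C5ar1, the receptor of C5a, was at 273 CPM in KO (382 UMIs, 246 to 301) and 128 CPM in WT (189 UMIs, 110 to 147), a log2 ratio of 1.09 (0.84 to 1.35). Only 15 of the 4848 genes had a higher ratio. C3ar1, the receptor of C3a, was at 269 CPM in KO (377 UMIs) and 246 CPM in WT (364 UMIs), a log2 ratio of 0.13 whose interval, -0.08 to 0.34, included no difference. The median of genes of like transcript length was 0.09 for C5ar1 and -0.10 for C3ar1. Of the 5 members with at least 100 UMIs here, 1, C5ar1, was at least 1.5-fold higher in KO and 0 were at least 1.5-fold lower, against 4.52% higher and 5.63% lower of all genes tested in the class.

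The other 3 members were near the counting floor in microglia-like cells. C3 had 1 UMI in KO and 1 UMI in WT. Serping1 had 1 UMI in KO and 0 UMIs in WT, where 3 UMIs would be 2.03 CPM. C4b had 14 UMIs in KO and 12 in WT, or 9.99 and 8.11 CPM, close to its level in astrocyte-like cells.

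**Figure D2:**
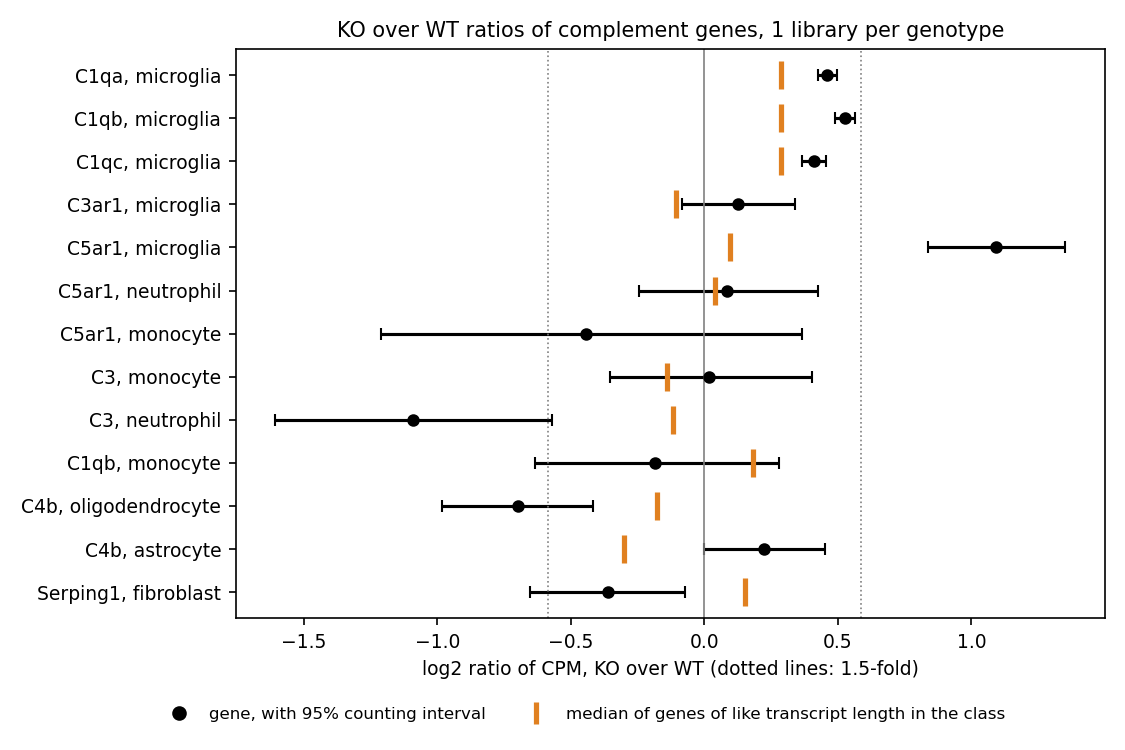
Log2 ratios of CPM, KO over WT, of 13 pairs of gene and class (points, with 95% counting intervals) and the median log2 ratio of genes of like transcript length in the class (orange ticks). C5ar1 in microglia-like cells lies at 1.09, C3 in neutrophil-like cells at -1.09 and C4b in oligodendrocyte-like cells at -0.70, while the 3 C1q chains lie between 0.41 and 0.53 with their length medians at 0.29.

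The C1q difference ran through the class rather than lying in a few cells. Per cell, the summed chains had a median of 24887 CPM in KO (quartiles 16854 and 30482) and 17208 CPM in WT (quartiles 11591 and 21845). After thinning each cell of at least 2000 UMIs to 2000 UMIs, 216 of 216 KO cells and 190 of 191 WT cells held UMIs of all 3 chains, leaving out 96 KO and 63 WT cells of lower depth. Across those cells the levels of the chains were positively correlated in pairs, on the log2(CPM + 500) scale with Pearson r of 0.38 to 0.44 in KO and 0.49 to 0.61 in WT, a description of cells that share a library and a total.

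C5ar1 was sparse in single microglia-like cells. It was detected in 148 of 312 KO cells (47.4%) and 91 of 254 WT cells (35.8%), and at least 4 UMIs were found in 26 KO cells and 9 WT cells. At 2000 UMIs per cell the share was 35.2% of 216 KO cells (28.8 to 42.0, Clopper-Pearson) and 18.3% of 191 WT cells (13.1 to 24.6). In astrocyte-like cells, with median depths of 8850 and 10200 UMIs, the share at 2000 UMIs was 0.0255% in KO and 0.149% in WT. C3ar1 was detected in 38.4% of KO and 39.3% of WT microglia-like cells at 2000 UMIs, against 53.8% and 55.5% before thinning. The plot of single cells shows the C1q clouds offset but overlapping, and the C5ar1 bars shifted toward higher counts in KO.

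**Figure D3:**
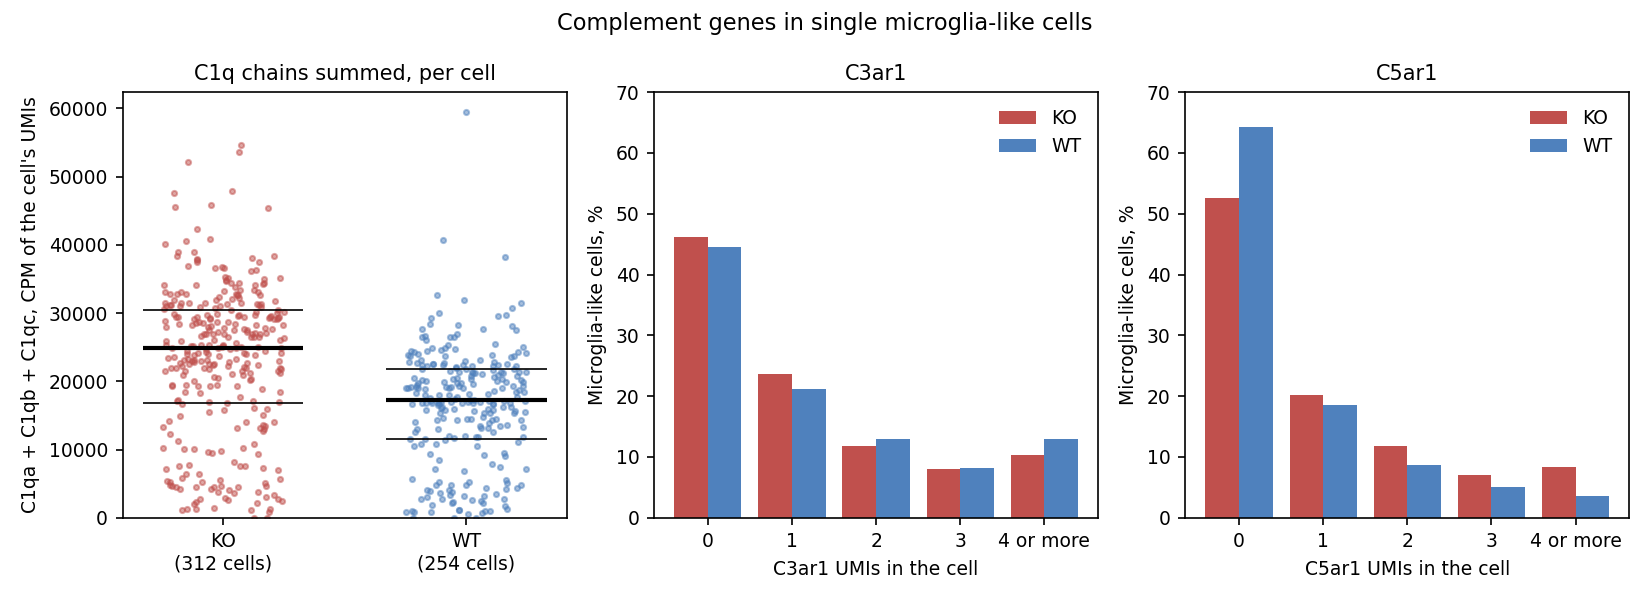
Single microglia-like cells of the KO (312 cells) and WT (254 cells) libraries. Left, summed C1q chains in CPM of the cell's UMIs, with median (thick line, 24887 in KO and 17208 in WT) and quartiles (thin lines); middle and right, percentage of cells by number of C3ar1 and C5ar1 UMIs, where 52.6% of KO and 64.2% of WT cells held no C5ar1 UMI.

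The same directions were found in each subset of the class for C1q and C5ar1. In cluster 7 (207 KO and 167 WT cells), the log2 ratio was 0.45 for C1q and 1.05 for C5ar1. In cluster 15 (83 KO and 63 WT cells), of low depth, it was 0.97 for C1q and 1.43 for C5ar1, which had 12 KO and 5 WT UMIs. In cluster 22 (22 KO and 24 WT cells) it was 0.56 for C1q and 2.57 for C5ar1, on 11 KO and 2 WT UMIs. Ccl3 and Ccl4 are chemokines that also respond to tissue dissociation, and the median of their summed level was 0 CPM. Cells above it, with a UMI of either (96 KO and 103 WT), gave 0.38 for C1q and 1.36 for C5ar1. Cells without such a UMI (216 KO and 151 WT) gave 0.54 and 0.88. The cells with such a UMI were deeper, with medians of 6265 (KO) and 7782 UMIs (WT), against 4145 and 5059. The 15 dissociation-response genes summed to 20036 CPM in KO and 24159.8 CPM in WT microglia-like cells. C3ar1 was lower in KO in clusters 15 and 22, on 14 KO and 22 WT UMIs and on 3 KO and 9 WT UMIs.

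RNA of other cell types was small but uneven in the class. The 9 neutrophil markers summed to 128 CPM in KO and 61.5 CPM in WT microglia-like cells, with 3 of them at 0 in KO (Cxcr2, Camp and Ltf) and 4 at 0 in WT. In cells without any neutrophil marker UMI (184 KO and 186 WT), C5ar1 was at 279 CPM in KO and 115 CPM in WT, a log2 ratio of 1.28 (0.96 to 1.61). In the cells with such a UMI (128 KO and 68 WT) it was at 264 CPM in KO and 163 CPM in WT, a log2 ratio of 0.69 (0.27 to 1.13). C1q gave 0.49 in the cells without a neutrophil marker UMI and 0.45 in those with one, and C3ar1 gave 0.04 and 0.23. This split by neutrophil marker UMIs was chosen after the values were seen. The 9 macrophage markers summed to 249 CPM in KO and 279 CPM in WT, with Cd163, Lyve1 and Ms4a7 at 0 in both. The astrocyte markers took 0.121% of UMIs in KO and 0.073% in WT. Only 13 KO and 16 WT cells held no astrocyte marker UMI. In these cells the C1q log2 ratio was 0.55 (0.41 to 0.70), and C5ar1 had 6 KO and 2 WT UMIs. Beyond this split of few cells, also chosen after the values were seen, the part of astrocyte RNA in the ratios was not tested.

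In each of the gated classes other than microglia-like and macrophage-like cells C1q was at 359 CPM or less, and the proportions of its chains varied. C1qa, C1qb and C1qc made up 37.8%, 35.8% and 26.4% of the C1q UMIs of microglia-like cells over both libraries, and 38.7%, 38.2% and 23.2% of those of astrocyte-like cells. Over both libraries the C1qb share was higher in several other classes. It was 44.1% of 472 C1q UMIs in oligodendrocyte-like cells (39.5 to 48.7, Clopper-Pearson) and 47.4% of 135 in endothelial-like cells (38.8 to 56.2). It was 46.2% of 130 in neuroblast-like cells (37.4 to 55.1) and 52.4% of 42 in B-cell-like cells (36.4 to 68.0). In neuroblast-like cells the excess lay in KO, with 48 of 96 UMIs against 12 of 34 in WT. B-cell-like cells likewise had 18 of 29 in KO and 4 of 13 in WT. The C1qb share was 43.0% in KO and 44.5% in WT oligodendrocyte-like cells, and 57.1% and 41.9% in endothelial-like cells. In microglia-like cells it was 36.4% in KO and 35.0% in WT. The 3 KO and 5 WT macrophage-like cells, too few for a comparison, held C1q at 18888 CPM in KO and 14923 CPM in WT with 36.8%, 34.8% and 28.4%. Astrocyte-like cells had 29.9 CPM in KO and 33.1 CPM in WT, endothelial-like cells 51.3 CPM and 84.5 CPM, and T-cell-like cells 19.8 CPM and 43.6 CPM. B-cell-like cells had 59.0 CPM in KO and 18.9 CPM in WT, and neuroblast-like cells 19.9 CPM and 10.1 CPM. These levels were far below that of microglia-like cells, they were higher in KO in some classes and lower in others, and their source was not tested.

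Oligodendrocyte-like cells had 14.4 C1q CPM in KO and 36.4 CPM in WT, on 142 and 330 UMIs. The microglia markers were also lower there in KO, 85.4 CPM against 116 CPM in WT. In oligodendrocyte-like cells without a microglia marker UMI, a split chosen after the values were seen, C1q was at 12.9 CPM in KO and 29.1 CPM in WT. In pericyte-like cells, C1q was at 304 CPM in KO and 359 CPM in WT, but the richest KO cells held 9 and 6 of the 19 C1qa UMIs and 1 WT cell held 21 of the 22.

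Monocyte-like cells stood apart in chain make-up. Over both libraries C1qb made up 74.6% of their C1q UMIs (69.0 to 79.7), C1qa 13.1% and C1qc 12.3%. The C1qb share was 75.4% in KO and 72.8% in WT. That of C1qa was 10.7% and 18.5%, and that of C1qc 13.9% and 8.64%. The interval takes UMIs as independent, though few cells held most of them. C1qb was at 159.9 CPM in KO and 182 CPM in WT. This signal lay in few cells: 3 KO cells and 1 WT cell with at least 10 C1qb UMIs held 108 of 141 and 55 of 59 C1qb UMIs. Those 4 cells held 13 C1qa UMIs in KO and 13 in WT. In the other 59 KO and 17 WT cells, C1qb was at 39.0 CPM in KO and 13.2 CPM in WT. The split at 10 C1qb UMIs was chosen after the values were seen and selects on the gene it compares. The marker list of macrophages summed to 766 CPM in KO and 971 CPM in WT monocyte-like cells, with Pf4, Cd163 and Lyve1 at 0 in both, and its part in the C1qb level was not tested.

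**Figure D4:**
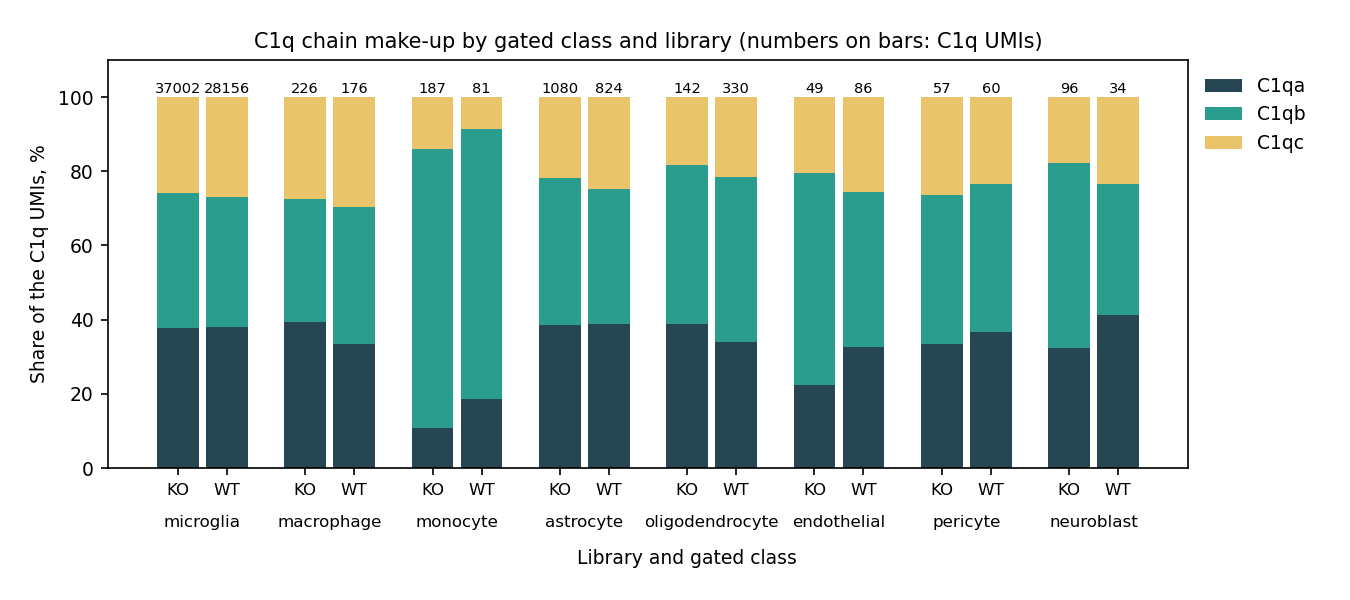
Share of C1qa, C1qb and C1qc among C1q UMIs in 8 gated classes, KO left of WT, with the number of C1q UMIs above each bar. Monocyte-like cells stand apart with 75.4% C1qb in KO and 72.8% in WT, against 36.4% in KO and 35.0% in WT microglia-like cells.

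C3, the central component of all complement pathways, was counted mainly in monocyte-like and neutrophil-like cells of this suspension. Whether these cells came from blood or tissue was not tested. The monocyte-like, neutrophil-like, fibroblast-like, pericyte-like and ependymal-like classes held under 50 cells in the WT library and were added after their values were seen. Monocyte-like cells (62 KO and 18 WT) had 253 CPM of C3 in KO (223 UMIs) and 249.8 CPM in WT (81 UMIs), a log2 ratio of 0.02 (-0.35 to 0.40). Of the 2 members with at least 100 UMIs in the class, C1qb and C3, 0 were past 1.5-fold, against 9.47% of genes higher and 9.3% lower. C3 was detected in 44 of the 62 KO cells and in 18 of the 18 WT cells, and at 2000 UMIs in 45.6% and 38.9%. Astrocyte-like cells held a C3 UMI at 2000 UMIs in 0.0255% of KO and 0.149% of WT cells. The level in monocyte-like cells thus differed by less than its counting interval between the libraries.

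Neutrophil-like cells (99 KO and 34 WT) had 103 CPM of C3 in KO (73 UMIs) and 220.0 CPM in WT (59 UMIs), a log2 ratio of -1.09 (-1.61 to -0.57). It was short of 1.5-fold, at -0.47, with each cell weighed the same and at -0.51 (-1.80 to 0.91) after thinning to 2000 UMIs per cell. Of the 2 members with at least 100 UMIs in the class, 1 was at least 1.5-fold lower in KO, against 11.6% of genes lower and 9.48% higher. Cells with at least 100 UMIs of Ngp, a granule gene of immature neutrophils, numbered 6 in KO and held 18 of the 73 C3 UMIs, and 4 in WT, where they held 44 of the 59. Among such cells C3 was at 185 CPM in KO and 408 CPM in WT. In the neutrophil-like cells with fewer Ngp UMIs (93 KO and 30 WT), C3 was at 90.2 CPM in KO and 93.5 CPM in WT, a log2 ratio of -0.05 (-0.90 to 0.88). The split by Ngp was chosen after the values were seen.

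C5ar1 in neutrophil-like cells was at 407 CPM in KO (288 UMIs) and 384 CPM in WT (103 UMIs), a log2 ratio of 0.09 (-0.24 to 0.42). It was detected in 88 of 99 KO and 31 of 34 WT cells. This interval did not overlap that of C5ar1 in microglia-like cells, 0.84 to 1.35, and the difference between the classes was not tested. In monocyte-like cells C5ar1 was lower, 49.9 CPM in KO (44 UMIs) and 67.8 CPM in WT (22 UMIs).

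C3 was also counted in ependymal-like cells, 28 KO and 29 WT cells that line the ventricles, at 33.2 CPM in KO (11 UMIs) and 56.6 CPM in WT (18 UMIs), where 1 KO cell held 7 of the 11. Astrocyte-like cells, in which C3 is used as a marker of a reactive state, had 6 C3 UMIs in 4221 KO cells and 18 in 2579 WT cells, 0.166 and 0.723 CPM. Oligodendrocyte-like cells had 0 C3 UMIs in KO, where 3 UMIs would be 0.305 CPM, and 4 in WT.

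C4b, the component cleaved after C1q has bound, was the one member whose UMIs lay mainly in macroglia, which also made up most of the cells. In oligodendrocyte-like cells it was at 17.9 CPM in KO (176 UMIs, 15.4 to 20.7) and 29.0 CPM in WT (263 UMIs, 25.6 to 32.7), a log2 ratio of -0.70 (-0.98 to -0.42). All 3 members with at least 100 UMIs in the class, C1qa, C1qb and C4b, were at least 1.5-fold lower in KO. Of all genes tested there, 3.91% were lower and 2.04% higher. C1qa was at 5.59 CPM in KO and 12.4 CPM in WT, and C1qb at 6.20 and 16.2 CPM. Both were far below their level in microglia-like cells, and their source was not tested. The C4b ratio was short of 1.5-fold under some alternatives, given below. The shares of cells with C4b were alike, 99 of 798 KO cells (12.4%) and 92 of 708 WT cells (13.0%), and at 2000 UMIs 2.90% in KO and 3.25% in WT. In neuroblast-like cells C4b had 0 UMIs in KO and 6 in WT, so the oligodendroglial counts exceeded the level in that class.

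The UMIs were spread over more cells in KO, where the 24 richest cells were needed to reach 50% of them, against 11 in WT. The richest KO cell held 8 of the 176 C4b UMIs and the richest WT cell 49 of the 263, and without the highest cell of each library the levels were 17.1 CPM in KO and 23.7 CPM in WT, a log2 ratio of -0.47, short of 1.5-fold. It was also short of 1.5-fold with each cell weighed the same (-0.48) and relative to genes of like transcript length (-0.52), and after thinning it was -0.67 (-1.48 to 0.12). Clusters within the class did not move together. In cluster 4 (573 KO and 468 WT cells), which holds the cell with 49 UMIs, C4b was at 13.4 CPM in KO and 31.2 CPM in WT, a log2 ratio of -1.22 (-1.58 to -0.87). In cluster 11 (145 KO and 77 WT cells) it was at 34.7 CPM in KO and 28.0 CPM in WT, a log2 ratio of 0.31 (-0.26 to 0.89).

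In astrocyte-like cells C4b was at 12.0 CPM in KO (435 UMIs, 10.9 to 13.2) and 10.3 CPM in WT (256 UMIs, 9.07 to 11.6), a log2 ratio of 0.23 (-0.00 to 0.45). Genes of like transcript length had a median of -0.30 in the class, and all genes -0.11. Of the 4 members with at least 100 UMIs there, 0 were past 1.5-fold in either direction, against 2.0% of genes higher and 7.45% lower. C4b was detected in 320 KO and 188 WT cells, and the highest cell held 10 UMIs in KO and 8 in WT. Clusters of the class again differed: the log2 ratio was -0.53 (-0.86 to -0.20) in cluster 0 (1718 KO and 360 WT cells). It was 0.58 (0.04 to 1.10) in cluster 1 (473 KO and 881 WT cells) and 0.31 (-0.44 to 1.12) in cluster 2 (1051 KO and 276 WT cells). In cluster 5 (605 KO and 381 WT cells) it was 1.19 (0.29 to 2.15), on 34 KO and 16 WT UMIs. Clusters 3 and 12, with fewer than 30 C4b UMIs, were lower in KO. The makeup of the class from these clusters differed between the libraries, and its part in the class ratio was not tested.

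**Figure D5:**
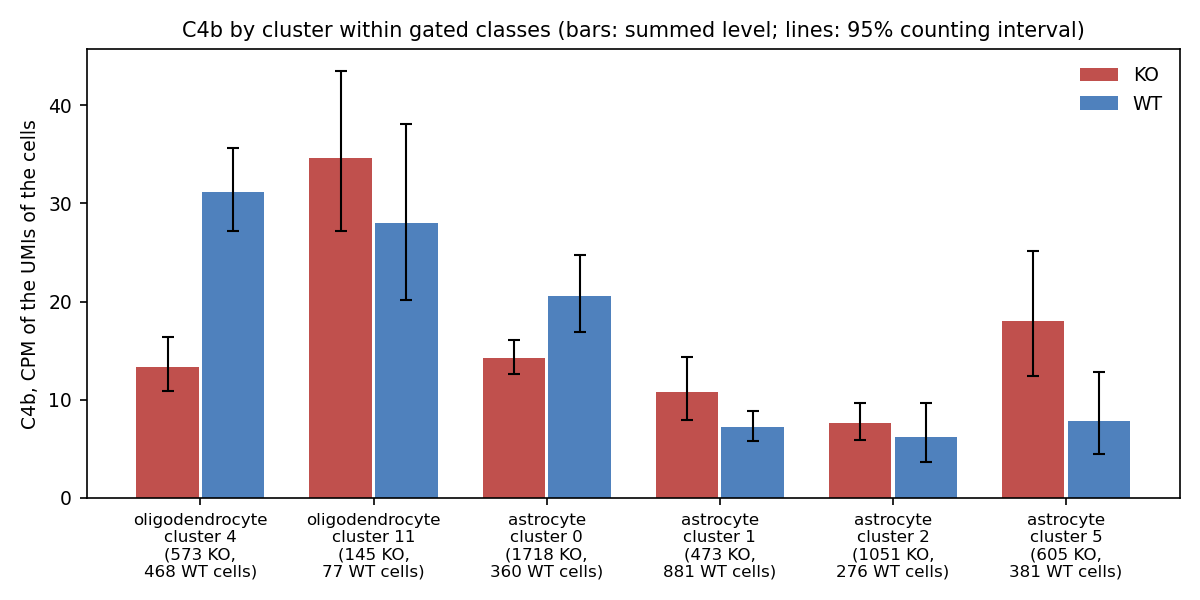
C4b level in clusters of oligodendrocyte-like and astrocyte-like cells with at least 30 C4b UMIs over both libraries (bars, KO left of WT; lines, 95% counting interval). In oligodendrocyte cluster 4 the level was 13.4 CPM in KO and 31.2 CPM in WT. Astrocyte clusters 1, 2 and 5 were higher in KO and cluster 0 was lower.

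C4b has a close paralogue, C4a, next to it on chromosome 17. The tables counted 19 C4a UMIs in KO and 14 in WT over the kept cells. The last 1000 bases of the longest C4b transcript, where 3′ reads fall, hold 851 windows of 150 bases. Of these, 0 were found in C4a, against 8.26% of the windows over the whole transcript. Thus no exact match of 150 bases was seen near the 3′ end. Shorter matches and matches with mismatches were not tested.

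Serping1, the inhibitor that removes active C1r and C1s from C1, was a gene of the fibroblast-like cells (96 KO and 40 WT), a class led by Mgp and Igfbp6 in which Lum was low, at 42.4 CPM in KO and 53.0 CPM in WT. It was at 190.2 CPM in KO (211 UMIs, 165 to 218) and 244 CPM in WT (189 UMIs, 211 to 282), a log2 ratio of -0.36 (-0.65 to -0.07), short of 1.5-fold, a size reached by 8.92% of genes downward and 3.76% upward. It was detected in 70 KO cells (72.9%) and 33 WT cells (82.5%), and at 2000 UMIs in 29.0% and 40.0%. C4b accompanied it there at 18.9 CPM in KO (21 UMIs) and 11.6 CPM in WT (9 UMIs). Pericyte-like cells had 11 Serping1 UMIs in 60 KO cells and 3 in 32 WT cells, 58.6 and 18.0 CPM. Serping1 was at 1.27 CPM in KO and 1.41 CPM in WT astrocyte-like cells.

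Other genes of the cascade were read from lists of 15 classical and lectin, 8 alternative, 7 terminal, 16 regulator and 10 receptor genes. In microglia-like cells 0 of 15 classical and lectin genes and 0 of 7 terminal genes reached 50 UMIs over both libraries, so the enzymes that act with C1q were not measurable there. Itgam and Itgb2, the chains of complement receptor 3, were at 677 and 197 CPM in KO and at 795 and 193 CPM in WT. C5ar2, the second C5a receptor, was at 108 CPM in KO and 77.1 CPM in WT, a log2 ratio of 0.48 (0.12 to 0.85). Of the 3 regulators and 5 other receptors measured, 1 was at least 1.5-fold lower in KO, Csmd3, a large membrane protein with complement control domains, at 181 CPM in KO and 387 CPM in WT, and 0 were higher. Of 11 homeostatic microglial genes 0 passed 1.5-fold, and of 9 measured disease-associated genes 2 were lower and 0 higher in KO. Of the 7213 genes with at least 50 UMIs in the class, the minimum used for these lists, 5.8% were at least 1.5-fold higher and 7.22% lower.

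Listed genes were also counted in other classes. Clu, the fluid-phase inhibitor clusterin, was at 4631 CPM in KO and 3717 CPM in WT astrocyte-like cells. Vtn, vitronectin, was at 20118 CPM in KO and 15686 CPM in WT pericyte-like cells, but it is among the markers that gated that class. In oligodendrocyte-like cells Cd59a, which blocks the membrane attack complex, was at 131 CPM in KO and 88.1 CPM in WT. B-cell-like cells held Cd55, decay accelerating factor, at 620.3 CPM in KO and 740.1 CPM in WT, and Cr2, complement receptor 2, at 97.6 CPM in KO and 171 CPM in WT. Cfp, properdin of the alternative pathway, was at 233 CPM in KO and 136 CPM in WT monocyte-like cells. Fcnb, ficolin B, a lectin of the myeloid lineage, had 0 UMIs in 99 KO neutrophil-like cells and 105 in 34 WT cells, all in the 4 WT cells with at least 100 Ngp UMIs.

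Over the 7 larger classes, each library a point (14 points), the genes with patterns most like a member were found among 7861 candidates with at least 50 CPM in a class. For C1qa they included Ltc4s (Pearson r 0.997), Olfml3, Trem2 and Tmem119, for C1qb Ltc4s, Olfml3, Hpgd and Cmklr1, and for C1qc Ltc4s, Olfml3, Siglech and Lrrc3. C3ar1 was closest to Slc2a5 (0.999), Gm2629, Trem2, Tmem119 and Il1a. C5ar1 was closest to Ccl9 (0.995), Arl11, Fcgr3, Cmklr1 and P2ry6. Olfml3, Trem2, Tmem119 and Siglech are among the markers that gated the microglia-like class. Their high level there was set by the gate, so their likeness to a member is no separate result. These values rest mainly on the contrast of microglia-like cells with the 6 other classes, and points of a library share its depth; C3, C4b and Serping1 stayed below 50 CPM in these classes and were not ranked.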

How the data were processed

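The deposited tables hold whole-number UMI counts per gene and barcode, with no normalization by the authors, per the file headers; Cell Ranger 4.0.0, Seurat 3.0, R 4.0.3 and the build mm10 are named in the submitters' processing notes, and the reads behind each UMI are not given. Library construction used 13 or 12 indexing cycles, per the labels' protocols. Cells needed 500 detected genes or more and no more than 20% of UMIs from mitochondrial genes, and the cells with the highest doublet scores, 0.8% per 1000 barcodes, were removed (448 KO and 212 WT), because the automatic threshold marked 164 KO and 0 WT cells. This left 7032 KO and 4940 WT cells.

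Each cell was scored for 21 cell types as the mean, over a type's markers, of log(1 + UMIs per 10000), each marker divided by its 90th percentile and capped at 1; a cell joined a class with a score of at least 0.35 and a lead of at least 0.15 (erythrocyte 0.75). These limits were chosen with the data in view, and 416 KO and 624 WT cells joined no class. The 28 Leiden clusters (scanpy 1.11.5, Python 3.11.15) were made without the 8 genes.

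UMIs were summed per class and library and given as CPM with exact Poisson intervals; the interval of a ratio is the exact conditional binomial one and that of a share of cells is Clopper-Pearson, all at 95% and for counting error only, without a test, as each genotype is 1 library. The interval code was tested on simulated data. The percentage of all genes with at least 100 UMIs in a class that lie past 1.5-fold is printed as a background. A like-length median is that of 1 of 20 bins of genes by longest GENCODE M21 transcript; 3′ UMI levels were not divided by length. Promoters are from RefSeq, GRCm38.p6. All 8 genes are named in each class with at least 50 cells in each library, and of the other complement genes up to 4 per list and class with at least 50 UMIs; 5 similar genes were ranked by Pearson r of log2(CPM + 10). Some genes that these rules name are not reported here. The genes and lists were chosen with earlier results of these data known. The alternatives tried were other cell filters, doublets kept, cluster-based classes, a stricter gate, trimmed-mean scaling, equal weight per cell and thinning to 2000 UMIs.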

Additional observations from a re-analysis of the deposited data

How the results depend on the processing

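No paired analysis was possible because each genotype is 1 library, and for the same reason no replicate could be left out. Over 16 results and 154 alternatives, 132 values stayed within the counting interval of the reported value (for counts, within 1.5 times), 15 moved beyond it and 7 changed sign. The log2 ratio of the summed C1q chains in microglia-like cells kept its direction in all 11 alternatives: it was 0.50 with equal weight per cell, 0.51 after thinning to equal depth and 0.18 after subtracting the like-length median, a correction chosen after seeing the data. C4b in oligodendrocyte-like cells stayed between -0.72 and -0.47 in 10 alternatives, short of 1.5-fold in 3 of them, and C4b in astrocyte-like cells between 0.16 and 0.53, reached after subtracting the like-length median. C5ar1 in microglia-like cells stayed between 1.00 and 1.41. The 5 pairs of gene and class at 50 CPM in both libraries were 5 under all 8 alternatives, and genes past 1.5-fold in microglia-like cells, counted under 6 of them, numbered 213 to 259 higher (219 reported) and 238 to 302 lower (273 reported).

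The sign changes concerned ratios near 0 or carried by few cells, and their cause was not tested unless stated. C3ar1 in microglia-like cells was -0.030 with equal weight per cell. C5ar1 in neutrophil-like cells was -0.040 with equal weight and -0.30 after thinning. In monocyte-like cells C3 was -0.26 with equal weight and -0.061 without the cell with the most UMIs in each library, and C1qb was 0.24 and 2.95, where 1 WT cell held 55 of 59 UMIs; under the stricter marker gate C1qb was -1.80 (-2.42 to -1.19). No cluster was named monocyte, so monocyte-like results have no cluster-based value. C3, C4b and Serping1 had a few UMIs in most classes, and differences there were not detectable at this depth.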

Other observations

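Cells that joined no marker class held 7.94% of the C1q UMIs in KO and 6.64% in WT, and most of these were in cluster 10, to which 57 of the 62 KO and all 18 WT monocyte-like cells also belong. In its 110 KO and 54 WT unassigned cells C1qa was at 914 CPM in KO and 689 CPM in WT, C1qb at 1145 CPM and 975 CPM, and C1qc at 598 CPM and 475 CPM. Only 42 of those KO cells and 23 of the WT cells held any C1q UMI. C3 in the same cells was at 42.7 CPM in KO and 66.7 CPM in WT, and C5ar1 at 59.6 CPM in KO and 64.7 CPM in WT.

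Hemoglobin transcripts, the RNA of red cells, summed to 2631 CPM in KO and 4871 CPM in WT microglia-like cells.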
